A study of Mus musculus with 11 samples.

Results

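The solute carriers that were abundant in control mouse kidney were described across 3 groups of kidneys. Members were the genes whose symbol has the form of a solute carrier (Slc or Slco with a family number, letters and a number) and whose mean in the 3 Ctr kidneys was at least 5 FPKM, a level scaled to the library total and to gene length. The Slc22 and Slc25 families and the single genes Slc12a1, Slc12a3, Slc4a1 and Slc26a4 were left out. Of 292 symbols considered, 146 were members, from 46 families, out of 25677 genes listed in all. The Ctr levels chose the members, so their levels in Ctr, and every difference from Ctr, are given as a description.

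Solute carriers are membrane proteins that move small molecules across cell membranes, mostly by exchange or by cotransport with sodium or protons. In the proximal tubule they take back filtered glucose, amino acids, phosphate, sulfate and carboxylates from the urine. Others load vesicles, bring metals in and out of cells, or carry nucleotide sugars into the Golgi apparatus. Several work only with a partner, such as a heavy subunit that brings the carrier to the membrane.

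The Ctr group was 3 female C57BL/6J mice, the Lpr group 4 female MRL/lpr mice without treatment, and the DNase group 4 female MRL/lpr mice that received DNase I by daily intraperitoneal injection from 17 weeks of age. Kidneys were taken at 21 weeks of age, with 1 library for each mouse. MRL/lpr mice have a defective Fas gene, and a nephritis resembling that of lupus appears with age. DNase I digests DNA outside cells. P-values measure the spread between mice, with 1 kidney library from each. Strain and disease cannot be told apart in any difference from Ctr, since no healthy MRL mouse and no treated C57BL/6J mouse was included.

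Each library held between 33469858 and 38460873 counts, and the members took between 1.62% and 2.78% of them. The lowest count of any member in any kidney was 77, for Slc10a5, and all 146 members passed the filter on low counts in every comparison, each of them by its abundance in the whole kidney. Replicate 3 of Lpr stood apart from the other 10 kidneys. Its counts fell with gene length by 0.39 on the log2 scale for each doubling of length, against slopes between -0.04 and 0.08 in the others, and its share on members was the lowest. Among the members alone the slope in this kidney was -0.34, and values that moved most without it are given both ways. Its 9 marker genes of tubular injury summed to 7421 FPKM, of which Spp1 alone gave 6511, against 1589 to 3810 in the other Lpr kidneys and 1082 to 1430 in Ctr. The other 8 summed to 910 in this kidney, 728 in Lpr replicate 2 and 285 to 370 in Ctr, and 4 of the 9 (Vcam1, Krt20, Krt8 and Sox9) were higher in Lpr replicate 2. With the length trend of each library removed, 25 members were called between Lpr and Ctr in place of 19. The share over all genes was then 13.7% in place of 10.2%. The part of injury in its values was not tested.

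**Figure D1:**
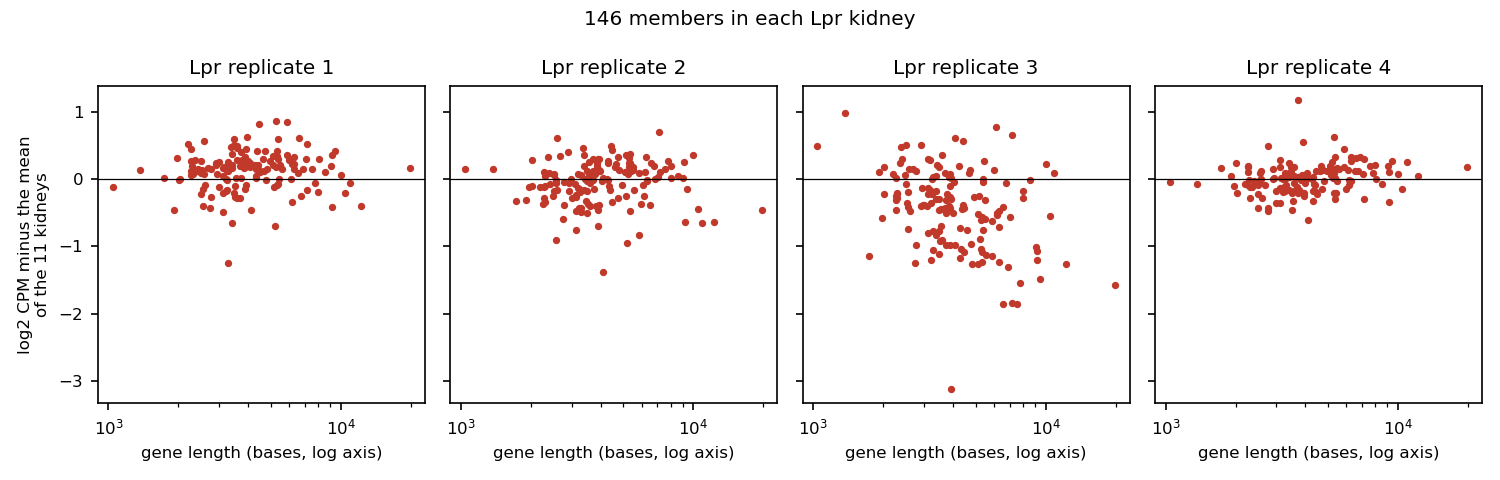
Each point is a member, with gene length in bases on a log axis, for the 4 Lpr kidneys. The other axis is its log2 CPM in that kidney minus its mean over the 11 kidneys. CPM is the count scaled to the library total times a normalization factor of that library (TMM). In replicate 3 the points fall with length (slope -0.34 per doubling) and their median is -0.39, while the medians of the other 3 lie between -0.01 and 0.15.

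The labelled tissue was checked against marker genes. All 16 markers of the proximal tubule were found and passed the filter, and they summed to 22662 to 27285 FPKM in Ctr, 8658 to 37057 in Lpr and 11575 to 18761 in DNase. Kap, an androgen-regulated gene of this segment, carried that range, from 1413 in Lpr replicate 2 to 28465 in Lpr replicate 3, and the other 15 summed to 7687 to 9000 in Ctr, 7245 to 8759 in Lpr and 7494 to 9380 in DNase. In bulk kidney, fewer cells of a type and less RNA per cell cannot be told apart. The 12 leukocyte markers summed to between 52.2 and 93.0 FPKM in Ctr, 591 and 1150 in Lpr, and 436 and 840 in DNase, and 11 of the 12 were called higher in Lpr than in Ctr. The 7 adipose markers were uneven within groups, from 176 to 1294 FPKM in Ctr and from 165 to 1487 in Lpr, and from 168 to 454 in DNase. No marker of the proximal tubule or of leukocytes was at 0 in any kidney, and of the adipose list only Lep was, in 4 kidneys. The part of leukocytes in the differences below was not tested.

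Promoter sequences of 106 members were found in RefSeq (GRCm38.p6, which is the mm10 assembly that the submitters' processing notes name), as 250 bases before the annotated start. Hepatocyte nuclear factors of the HNF1 and HNF4 families are known to drive proximal tubule genes, so these windows were searched on both strands for GTTAAT, a core of HNF1 sites, and for CAAAGTCCA, an HNF4 repeat, which share no overlap in the windows shown. GTTAAT was found in 6.6% of the members' windows and in 6.52% of 27025 windows of all genes, and CAAAGTCCA in 0.943% and 0.381%. Of the 13 members with a window that were called lower in Lpr than in Ctr, 7.69% held GTTAAT and 0 held CAAAGTCCA. These matches are letters in a window and not binding sites. Slc3a1 (chr17:85028097-85028346, plus strand) is shown as the only member with CAAAGTCCA, and its RefSeq start lay 29 bases from the GENCODE start. Slc5a10 (chr11:61720800-61721049, minus strand) is shown as the called member with the HNF1 core, there as ATTAAC, the same letters read from the opposite strand. Slc6a4 (chr11:76998347-76998596, plus strand) is shown as a called member that held neither in these letters. Capitals mark the match, and sequences run 5′ to 3′ in the direction of the gene.
Slc3a1: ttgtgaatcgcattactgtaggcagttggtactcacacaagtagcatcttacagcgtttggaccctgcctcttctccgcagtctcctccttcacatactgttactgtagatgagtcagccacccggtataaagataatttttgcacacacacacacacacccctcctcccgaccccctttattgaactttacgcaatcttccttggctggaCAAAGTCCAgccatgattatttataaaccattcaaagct
Slc5a10: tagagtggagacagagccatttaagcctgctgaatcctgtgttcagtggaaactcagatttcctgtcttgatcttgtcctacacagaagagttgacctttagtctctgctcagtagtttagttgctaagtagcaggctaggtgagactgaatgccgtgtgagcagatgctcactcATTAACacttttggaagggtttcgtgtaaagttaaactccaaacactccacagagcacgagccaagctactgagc
Slc6a4: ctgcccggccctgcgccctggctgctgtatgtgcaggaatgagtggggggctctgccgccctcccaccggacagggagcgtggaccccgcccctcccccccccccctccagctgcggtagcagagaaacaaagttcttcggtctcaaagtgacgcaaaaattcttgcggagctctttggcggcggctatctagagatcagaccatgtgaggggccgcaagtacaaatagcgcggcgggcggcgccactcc

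Slc34a1, the sodium-phosphate cotransporter of the proximal tubule brush border, had the highest level, 1355 ± 57.2 FPKM (SD, n = 3). Slc27a2, a carrier and activating enzyme of very long fatty acids, followed with 1222 ± 237, and these neighbours did not differ beyond their spread. Slc3a1, the heavy subunit of the cystine carrier, stood at 351 ± 53.9, and Slc13a3, the dicarboxylate carrier of the basolateral membrane, at 305 ± 44.5. Their values also overlapped in the 3 Ctr kidneys. Slc5a2, the main glucose carrier of the early proximal tubule, was at 188 ± 1.66 FPKM, with the smallest spread of the 12 highest members. Slc6a18 and Slc6a19, which carry neutral amino acids, were at 179 ± 46.8 and 116 ± 6.76. Slc17a1, an organic anion carrier, was at 151 ± 25.1, and Slc7a12, an amino acid exchanger, at 147 ± 21.2. Slc13a1, the sodium-sulfate cotransporter, was at 139 ± 36.6, Slc4a4, the basolateral sodium-bicarbonate cotransporter, at 128 ± 8.44, and Slc5a10, a mannose and fructose carrier, at 115 ± 16.1. Ranked by mean from Slc5a2 down to Slc5a10, each of these members overlapped the next in the 3 Ctr kidneys.

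Slc34a1 and Slc27a2 also had the highest means in both MRL/lpr groups. Slc34a1 was at 1265, 976, 613 and 1194 FPKM in the 4 Lpr kidneys and at 1245, 1266, 1001 and 1194 in DNase, all below the lowest Ctr kidney at 1296. The log2 fold change was -0.47 ± 0.24 (SE; adjusted p = 0.318) in Lpr and -0.30 ± 0.12 (adjusted p = 0.101) in DNase, and neither was called. Slc3a1 differed from Ctr by -0.28 ± 0.18 and -0.25 ± 0.14, Slc6a18 by -0.18 ± 0.23 and -0.03 ± 0.17, and Slc6a19 by -0.34 ± 0.26 and -0.14 ± 0.19. Each of these 3 overlapped Ctr in both MRL/lpr groups. Without Lpr replicate 3, the difference of Lpr from Ctr was -0.31 ± 0.15 for Slc34a1, -0.10 ± 0.21 for Slc6a18 and -0.14 ± 0.10 for Slc6a19. Of the 12 highest members, Slc5a10 was called lower in Lpr, and Slc5a10 and Slc13a3 were called lower in DNase.

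**Figure D2:**
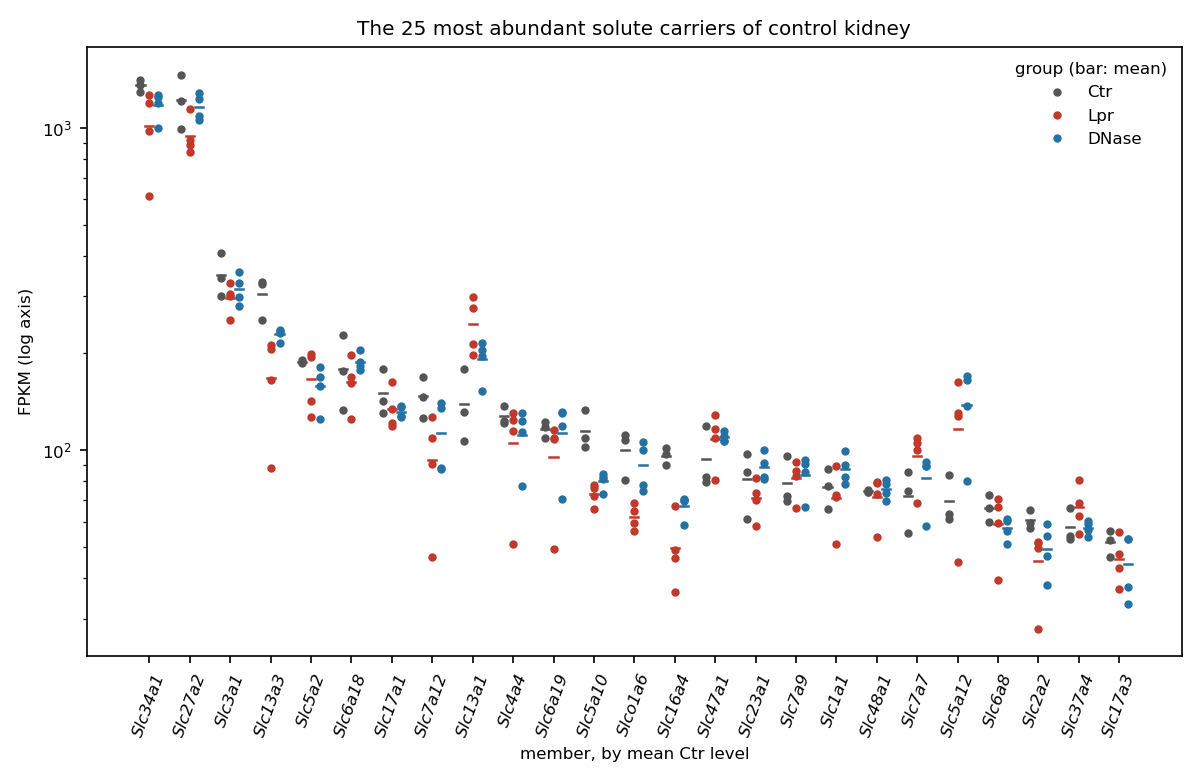
FPKM (log axis) of the 25 most abundant members in each kidney, with a bar at the mean of each group (3 Ctr, 4 Lpr and 4 DNase kidneys). Slc34a1 and Slc27a2 lie highest in all groups, and the lowest Lpr point of Slc34a1, 613, is replicate 3.

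At the threshold, Slc52a2 and Slc8b1 lay just inside with Ctr means of 5.04 and 5.14 FPKM, and Slc35b3 and Slc19a2 just outside with 4.99 and 4.91. Had the MRL/lpr kidneys set the threshold, 143 symbols would have passed, of which 138 are members.

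The members were grouped by the substrate their family or gene is known for. The 20 amino acid carriers summed to 1287 ± 167 FPKM in Ctr (SD, n = 3), 1122 ± 213 in Lpr (n = 4) and 1203 ± 133 in DNase (n = 4). The 19 metal carriers, which hold the zinc families Slc30 and Slc39, summed to 437 ± 3.69, 471 ± 39.2 and 457 ± 14.4. In both classes the kidneys of the 3 groups overlapped. The 15 members of the Slc35 family grouped as nucleotide sugar carriers of the Golgi apparatus and endoplasmic reticulum summed to 193 ± 3.59, 183 ± 13.5 and 187 ± 1.10, where all DNase kidneys lay slightly below all Ctr kidneys. The 11 monocarboxylate carriers summed to 325 ± 13.1, 294 ± 79.2 and 348 ± 44.3. The pair of monoamine carriers, Slc18a1 and Slc6a4, was far lower in the MRL/lpr groups, with 23.7 ± 1.92 FPKM in Ctr, 8.75 ± 2.34 in Lpr and 14.1 ± 1.29 in DNase, and the groups did not overlap. Lpr replicate 3 had the lowest Lpr sum in each of these 5 classes. Without it the Lpr sums were 1226 ± 53.2 for amino acids, 487 ± 24.4 for metals, 189 ± 4.79 for nucleotide sugars, 330 ± 40.0 for monocarboxylates and 9.86 ± 0.903 for monoamines (n = 3), so that the monocarboxylate mean lay above that of Ctr and the metal sums no longer overlapped Ctr.

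Between Lpr and Ctr, 19 of the 146 members were called lower and 0 higher, at an adjusted p under 0.05 in edgeR's quasi-likelihood test fitted and adjusted over all 16074 genes tested. Over all genes, 2.92% were called lower and 7.27% higher, and over the 7431 genes with the same Ctr minimum 2.88% and 2.76%. With the members chosen on Ctr, nothing is read from that contrast. At an unadjusted p under 0.05, 7 members were higher and 29 lower, beside 13.7% and 7.7% of all genes. In either direction that was 24.7% of the members and 21.4% of all genes. DESeq2 called 1 higher and 23 lower, beside 8.58% and 4.31% of all genes. No member passed the study's own limit of a log2 fold change beyond 2, which 5.78% of all genes passed. The median log2 fold change of the members was -0.14, beside 0.03 over all genes, with 51 members above 0 and 95 below. Without Lpr replicate 3 it was -0.05, with 63 above 0 and 83 below.

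The 2 monoamine carriers were among those lower. Slc18a1, a vesicular monoamine carrier of endocrine cells, had the smallest p of all members. It was at 19.2, 16.8 and 17.3 FPKM in Ctr and at 7.09, 6.37, 3.93 and 7.87 in Lpr, and the groups did not overlap. The difference was 2.91-fold (log2 -1.54 ± 0.21, adjusted p = 0.00252). Slc6a4, the serotonin carrier of the plasma membrane, had Ctr values of 6.20, 7.30 and 4.30 and Lpr values of 2.78, 2.59, 1.495 and 2.89. All Lpr kidneys were below all Ctr kidneys, by 2.52-fold (log2 -1.34 ± 0.27, adjusted p = 0.0155).

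Of 11 members grouped as monocarboxylate carriers, 4 were lower. The place of the Slc16 genes in this class follows their family and does not give the substrate of each. Slc5a8, a sodium-coupled monocarboxylate carrier of the apical membrane, was at 26.5, 24.9 and 21.8 FPKM in Ctr and at 14.9, 11.9, 10.2 and 14.3 in Lpr (log2 -0.97 ± 0.17, adjusted p = 0.00747). Slc16a14, a member of the monocarboxylate carrier family, fell from 8.68, 11.6 and 11.9 to 5.64, 1.84, 1.93 and 4.49. Its Lpr kidneys formed a wide group, still below Ctr, and its change was the largest of all members in this comparison (3.19-fold, log2 -1.67 ± 0.39, adjusted p = 0.0292). Slc16a4, of the same family and more abundant, was at 101, 89.9 and 97.4 in Ctr and at 48.9, 36.2, 46.4 and 67.1 in Lpr (log2 -0.99 ± 0.21, adjusted p = 0.0171). Slc16a7, a lactate and pyruvate carrier, was 2.22-fold lower (log2 -1.15 ± 0.27, adjusted p = 0.0293). Its exons overlap another annotated gene, and since the counting is not stated to use strand, reads of the pair cannot be told apart. In contrast Slc5a12, the other sodium-coupled carrier of this class, was at 61.1, 63.4 and 83.6 in Ctr and at 128, 131, 45.0 and 163 in Lpr, where only replicate 3 lay below Ctr (log2 0.69 ± 0.36, adjusted p = 0.327).

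Of 9 carriers of bicarbonate and protons, 3 were lower. Slc9a2, a sodium-proton exchanger, was at 17.7, 15.8 and 14.4 FPKM in Ctr and at 7.71, 6.86, 4.08 and 8.41 in Lpr, without overlap (2.44-fold, log2 -1.29 ± 0.23, adjusted p = 0.00777). Slc9a8, an exchanger of the same family, was at 32.98, 31.9 and 26.7 against 18.9, 16.9, 14.3 and 20.8 (log2 -0.83 ± 0.17, adjusted p = 0.0156). Slc4a9, an anion exchanger of intercalated cells, was at 18.6 ± 5.02 in Ctr and 9.18 ± 2.45 in Lpr (adjusted p = 0.0337). Slc9a3, the main sodium-proton exchanger of the proximal tubule brush border, was not called (log2 -0.01 ± 0.36), nor was Slc4a4 (log2 -0.33 ± 0.28). Without Lpr replicate 3 these values were 0.23 ± 0.19 and -0.12 ± 0.11, again uncalled.

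Among 20 amino acid carriers, Slc38a3 was the only one called. This glutamine carrier, known for its part in ammonia formation during acidosis, was at 39.8, 34.6 and 21.4 FPKM in Ctr and at 7.86, 13.9, 8.59 and 17.4 in Lpr. The highest Lpr kidney lay under the lowest Ctr kidney, and the change was 2.78-fold (log2 -1.47 ± 0.31, adjusted p = 0.0179). Slc7a8, a basolateral exchanger of neutral amino acids, had 44.4, 54.9 and 50.3 in Ctr and 27.5, 36.2, 9.45 and 32.0 in Lpr, again without overlap but uncalled (log2 -0.98 ± 0.37, adjusted p = 0.153). Its lowest value was from replicate 3. The other members of this class lay between log2 -0.71 (Slc7a12) and 0.42 (Slc43a3, placed here by its family and not by its own substrate).

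Carriers of vitamins, sugars, nucleotide sugars and other organic molecules made up the rest. Slc35a3, which carries UDP-N-acetylglucosamine into the Golgi apparatus, was at 22.5, 18.6 and 17.1 FPKM in Ctr and at 9.60, 10.7, 7.99 and 11.98 in Lpr, without overlap (1.99-fold, log2 -0.99 ± 0.17, adjusted p = 0.00654). Slc35f2 and Slc35f5 of the same family were lower by less than 1 on the log2 scale. Slc5a6, a carrier of biotin and pantothenate, was at 14.0, 18.1 and 13.6 against 9.14, 6.33, 6.91 and 8.88 (log2 -1.01 ± 0.20, adjusted p = 0.013). It has a near-identical copy in the genome, so its reads are uncertain, as they are for Slc1a1, Slc35a4, Slc35e3 and Slc39a1. Slc52a3, a riboflavin carrier, stood at 9.31 ± 1.67 in Ctr and 4.61 ± 1.54 in Lpr (adjusted p = 0.0438). Slc5a10 was at 109, 133 and 102 against 72.0, 78.1, 76.2 and 65.7 (log2 -0.69 ± 0.17, adjusted p = 0.0382). The glucose carriers Slc5a2, Slc5a1 and Slc2a2 were not called, at log2 -0.23 ± 0.19, -0.04 ± 0.18 and -0.47 ± 0.21, and Slc5a2 was at -0.14 ± 0.14 without Lpr replicate 3. The remaining calls were Slco1a6, an organic anion carrier (log2 -0.72 ± 0.18), Slc6a13, a GABA and taurine carrier (-0.74 ± 0.19), and Slc27a1, a fatty acid carrier (-0.94 ± 0.24).

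No metal, choline, phosphate, nucleoside or cation-chloride carrier was called in either direction. Close to the threshold stood Slc35a5 (adjusted p = 0.0503), Slc14a2, the urea carrier of the inner medulla (log2 -1.22 ± 0.36, adjusted p = 0.0704), and Slc13a3 (log2 -0.92 ± 0.28, adjusted p = 0.0827). The largest positive value was that of Slc13a1. It was at 107, 179 and 131 FPKM in Ctr and at 276, 298, 198 and 214 in Lpr, and all Lpr kidneys were above all Ctr kidneys (log2 0.78 ± 0.24, adjusted p = 0.0835).

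Many well-known carriers were called in neither comparison with Ctr, though not all of their means were close to Ctr. Slc7a9, the light subunit that pairs with Slc3a1 for cystine, was at 79.2 ± 14.5 FPKM in Ctr, 81.8 ± 11.0 in Lpr and 84.0 ± 12.1 in DNase. Slc23a1, the vitamin C carrier, was at 81.5 ± 18.4, 70.9 ± 9.96 and 88.9 ± 8.75, and Slc47a1, which exports organic cations into the urine, at 93.7 ± 21.9, 109 ± 20.1 and 109 ± 3.75. Their groups overlapped in all comparisons. Slc40a1 (ferroportin), the iron exporter, was at 25.7 ± 4.14, 22.05 ± 3.23 and 24.5 ± 4.40, and Slc6a8, the creatine carrier, at 66.0 ± 6.32, 59.0 ± 13.8 and 57.2 ± 4.44. Slc2a1, the glucose carrier found in most cells, was at 30.4 ± 2.12, 40.6 ± 5.34 and 39.6 ± 10.5, where all Lpr kidneys were above Ctr without being called (log2 0.38 ± 0.16, adjusted p = 0.216). Slc7a7, which releases dibasic amino acids on the basolateral side with Slc3a2, was at 72.0 ± 15.4, 95.7 ± 18.4 and 82.1 ± 16.1 and overlapped.

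**Figure D3:**
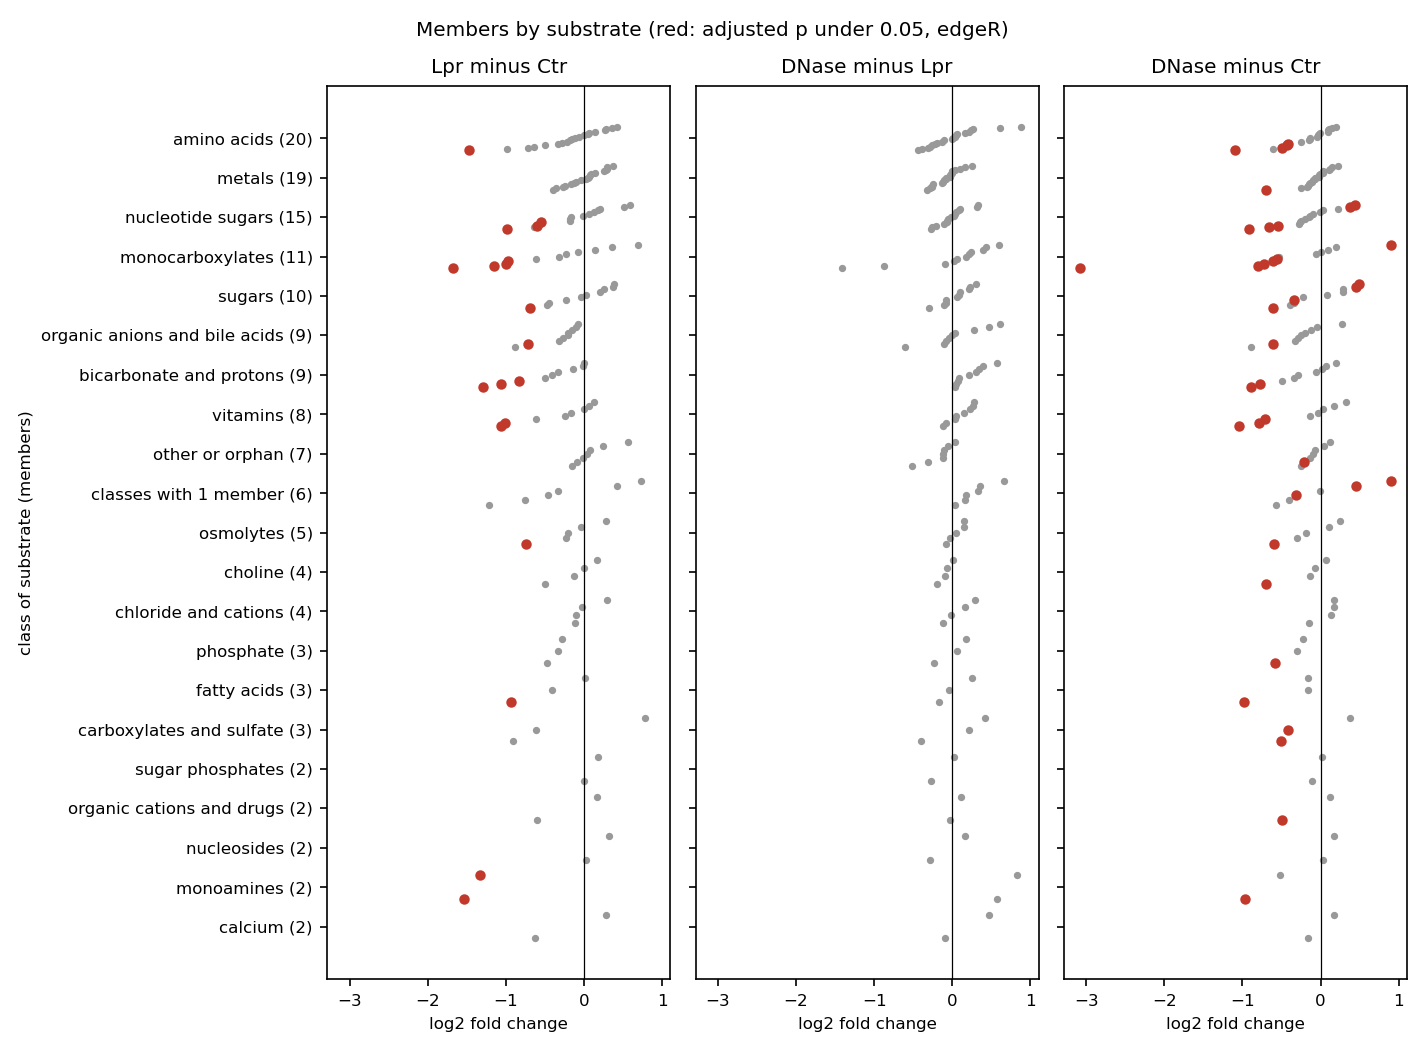
The log2 fold change of each of the 146 members (x axis) by class of substrate (y axis, number of members in brackets, with classes of 1 member drawn together), with called members in red. The red points lie left of 0 in Lpr minus Ctr (19 members), there are none in DNase minus Lpr, and they lie on both sides in DNase minus Ctr (7 right, 31 left).

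Without Lpr replicate 3, 34 members were called against Ctr, 25 lower and 9 higher, beside 17.8% of all genes tested in that fit, and all 19 calls above were kept. The 9 higher were Slc5a12 (log2 0.95 ± 0.15), Slc26a1, a sulfate and oxalate exchanger (0.94 ± 0.13), Slc13a1 (0.84 ± 0.22), Slc6a6, the taurine carrier (0.61 ± 0.13), Slc43a3 (0.55 ± 0.15), Slc5a9 (0.44 ± 0.10), Slc16a10 (0.42 ± 0.11), Slc15a2, a peptide carrier (0.38 ± 0.10), and Slc35b2 (0.37 ± 0.10). Among those lower were then also Slc10a2, the sodium-bile acid cotransporter (-1.38 ± 0.23), Slc7a8 (-0.72 ± 0.13), Slc13a3 (-0.72 ± 0.16) and Slc2a2, a glucose carrier of the basolateral membrane (-0.32 ± 0.08). The number of members called higher thus went from 0 to 9 without this kidney. Leaving out a Ctr kidney gave 5, 4 and 9 calls (without replicates 1, 2 and 3), and leaving out Lpr replicate 2 gave 9. The share called over all genes fell as well, to 5.2%, 5.54%, 5.58% and 7.48%, from 10.2% with every kidney. Slc18a1, Slc35a3 and Slc9a2 were called without any 1 kidney, and each of the other 16 lost its call without at least 1.

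Between DNase and Lpr, the comparison that does not involve Ctr, 0 of the 146 members were called by edgeR, and 0 of 15832 genes (0%). At an unadjusted p under 0.05 there were 6 members higher and 4 lower, 6.85% of the members beside 5.6% of all genes. DESeq2 called 0 members, beside 0.0538% of 18603 genes higher and 0.0376% lower. The median log2 fold change of the members was 0.03 and that of all genes -0.02, with 78 members above 0 and 68 below. Without Lpr replicate 3 the median was -0.06, with 58 above 0 and 88 below.

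The members with the smallest p in this comparison included several that were lower in Lpr than in Ctr. Slc6a4 was at 4.23, 4.43, 4.55 and 4.50 FPKM in DNase, all above the 4 Lpr kidneys (2.78, 2.59, 1.495 and 2.89), with a log2 fold change of 0.82 ± 0.20 (adjusted p = 0.82). The DNase values were also unusually close together, with an SD of 0.141. Slc38a3 was at 18.5, 21.6, 29.0 and 20.5 against 7.86, 13.9, 8.59 and 17.4 (log2 0.87 ± 0.25, adjusted p = 0.82). Slc18a1 was at 8.72, 10.9, 8.47 and 10.6, above the highest Lpr kidney at 7.87 (log2 0.58 ± 0.19, adjusted p = 0.82). Slco1a6 was at 74.7, 106, 77.8 and 100 against 56.2, 59.5, 68.4 and 64.6 (log2 0.47 ± 0.16, adjusted p = 0.82). In these 4 genes the groups did not overlap, and none passed the adjustment over all genes. Slc4a11, the other of the 5 with the smallest p in this direction, overlapped Lpr. The share of all genes without overlap was not counted, so nothing is read from the 4. With DESeq2 the adjusted p was 0.0657 for Slc6a4, 0.196 for Slc38a3, 0.408 for Slc18a1, 0.462 for Slco1a6 and 0.611 for Slc4a11. All 5 genes had been picked out for their p in this comparison, and the Lpr kidneys are those that also enter the comparison with Ctr.

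In the opposite direction, Slc16a14 was at 0.995, 1.48, 1.44 and 1.48 FPKM in DNase and at 5.64, 1.84, 1.93 and 4.49 in Lpr, without overlap (log2 -1.41 ± 0.36, adjusted p = 0.82). Slc3a2, the heavy subunit shared by several amino acid exchangers, was at 26.1, 26.7, 21.1 and 23.9 against 29.2, 37.5, 31.2 and 30.9, also without overlap (log2 -0.45 ± 0.14, adjusted p = 0.82). Slc16a1, a lactate carrier, was at 12.3, 7.26, 4.98 and 6.61 against 17.4, 14.5, 13.9 and 9.09, where the highest DNase kidney overlapped Lpr (log2 -0.88 ± 0.30, adjusted p = 0.82). Slc13a1 was at 193 ± 27.5 in DNase and 246 ± 48.4 in Lpr (log2 -0.40 ± 0.17). With DESeq2 the adjusted p was 0.0672 for Slc16a14, 0.209 for Slc3a2, 0.310 for Slc16a1 and 0.617 for Slc13a1. It was 0.679 for Slc35b1, which overlapped Lpr. Without Lpr replicate 3, 27 members had an unadjusted p under 0.05 and 0 were called, with 0.25 as the smallest adjusted p. Over all genes the number at that unadjusted p rose as well, from 886 of 15832 to 1618 of 16006.

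**Figure D4:**
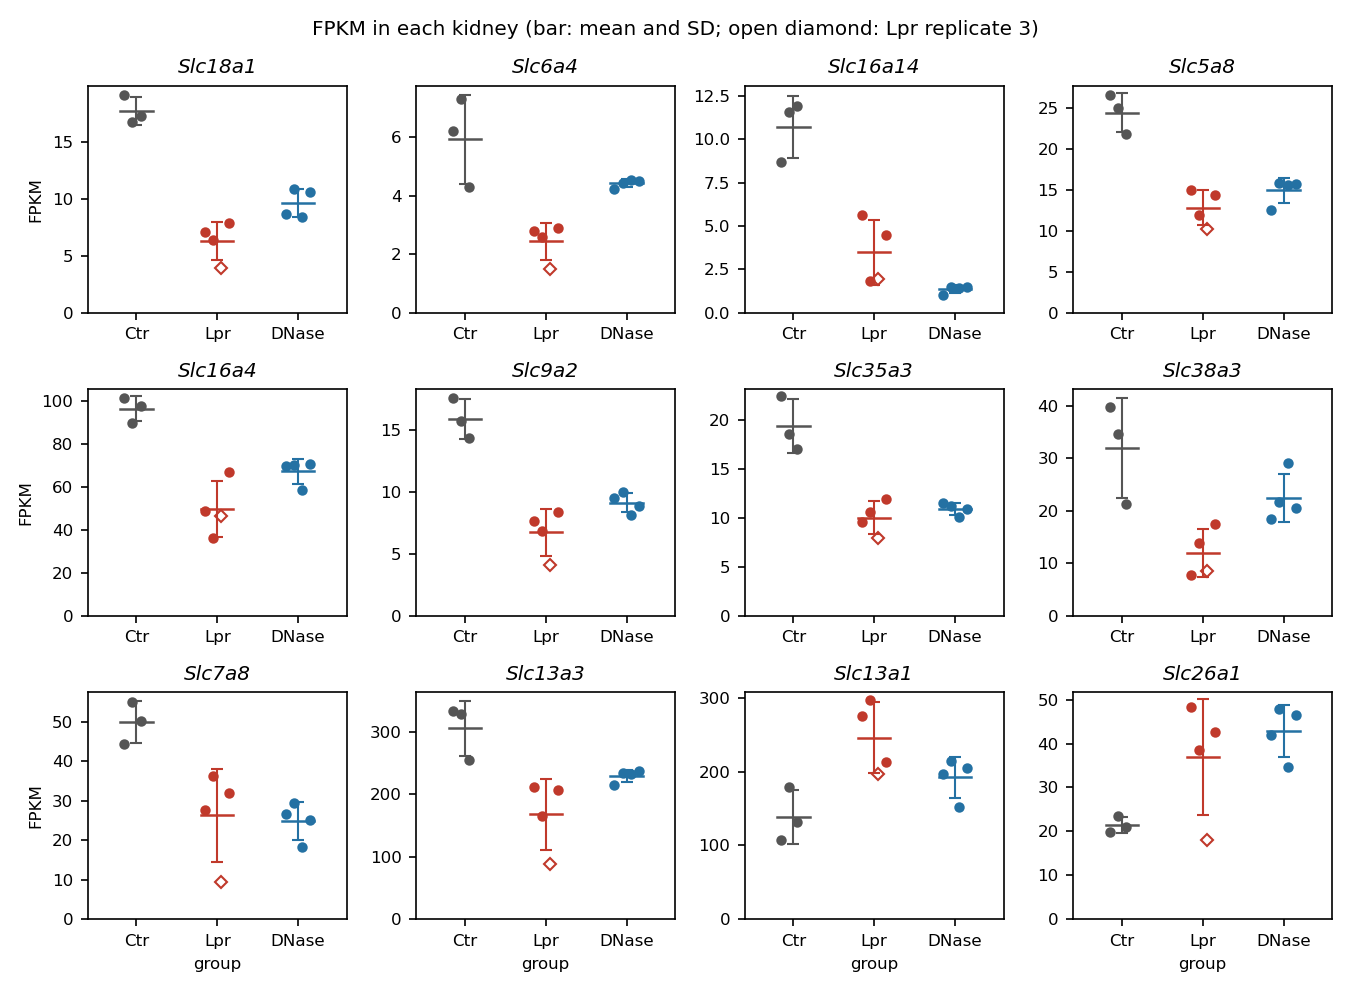
FPKM of 12 members in each kidney (points), with the mean and SD of each group (3 Ctr, 4 Lpr and 4 DNase kidneys), on axes that start at 0. Slc18a1 is at 17.8 in Ctr, 6.31 in Lpr and 9.67 in DNase, Slc16a14 is lowest in DNase (1.35), and Slc13a1 and Slc26a1 have higher means in both MRL/lpr groups than in Ctr, with Lpr replicate 3 (open diamond) the lowest Lpr kidney of 9 of the 12.

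Between DNase and Ctr, 31 members were called lower and 7 higher of 16100 genes tested, of which 8.61% were called lower and 13.1% higher, or 10.6% and 7.81% of those with the same Ctr minimum. The Ctr kidneys are those of the comparison of Lpr with Ctr, so the 2 sets of values are not independent, and they are given side by side. DESeq2 called 41 lower and 7 higher, beside 9.51% and 12.2% of all genes. On FPKM values limma called 23 lower and 10 higher, beside 22.7% or 22.8% of all genes, depending on the pseudocount. With the length trend of each library removed 49 were lower and 4 higher, beside 27.1% of all genes. The split between directions thus changed with the scale. That removal moved the median log2 fold change of all genes from 0.00 to -0.11, and in Lpr against Ctr from 0.03 to -0.08. The median of the members was -0.14 beside 0.00 over all genes, with 47 above 0 and 99 below. Leaving out 1 kidney gave between 28 and 37 calls, beside 16.5% to 21.5% of all genes, and 23 of the 38 calls held without any 1 kidney.

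Slc16a14 was the only member past a log2 fold change of 2, a limit that 6.01% of all genes passed. From 10.7 ± 1.78 FPKM in Ctr it was at 1.35 ± 0.236 in DNase, 8.48-fold lower (log2 -3.08 ± 0.17, adjusted p = 5.16e-06). The other monocarboxylate carriers called were Slc5a8 with 12.6, 15.8, 15.6 and 15.7 (log2 -0.80 ± 0.11), Slc16a4 with 69.8, 70.1, 58.6 and 70.6 (-0.61 ± 0.09), Slc16a5 (-0.72 ± 0.13) and Slc16a7 (-0.56 ± 0.17). Slc5a12 was higher, at 170, 166, 80.04 and 137 FPKM, where replicate 3 fell within the Ctr range of 61.1 to 83.6 (log2 0.90 ± 0.24, adjusted p = 0.0257). The class thus held called members in both directions.

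Slc7a8 was the amino acid carrier with the clearest difference, at 26.7, 29.4, 18.2 and 25.1 FPKM, all below the lowest Ctr kidney at 44.4 (2.14-fold, log2 -1.10 ± 0.16, adjusted p = 0.000916). Slc43a2, Slc1a5 and Slc1a4, which carry neutral amino acids, were lower by 0.50 ± 0.11, 0.42 ± 0.11 and 0.43 ± 0.11 on the log2 scale. Slc38a3 overlapped Ctr and was not called (log2 -0.61 ± 0.22, adjusted p = 0.0771). Slc27a1 was at 9.32, 9.74, 9.05 and 7.91 against 16.9, 15.4 and 17.8, without overlap (log2 -0.99 ± 0.08, adjusted p = 3.8e-05). Slc9a2 (-0.90 ± 0.10), Slc35a3 (-0.92 ± 0.10), Slc52a3 (-1.04 ± 0.13) and Slc18a1 (-0.97 ± 0.11) were lower, as they were in Lpr. Slc6a4 and Slco1a6 were not called, at -0.52 ± 0.17 and -0.25 ± 0.16. Among those called lower were also Slc19a3, a thiamine carrier (-0.71 ± 0.17), Slc44a3, of the choline carrier family (-0.70 ± 0.11), and Slc30a2, a zinc carrier of vesicles and the only metal carrier called (-0.69 ± 0.12).

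Of 3 carboxylate and sulfate carriers, 2 were called lower. Slc13a3 was at 215, 234, 231 and 236 FPKM against 333, 329 and 254 in Ctr, without overlap (log2 -0.51 ± 0.12, adjusted p = 0.0128), and Slc13a2, the apical citrate carrier, was lower by 0.41 ± 0.10 (adjusted p = 0.0167). Slc34a3, a sodium-phosphate cotransporter, was at 28.3, 25.6, 15.8 and 23.5 against 31.1, 34.0 and 32.4 (log2 -0.58 ± 0.17, adjusted p = 0.0356). None of these 3 genes was called in Lpr against Ctr, and none in DNase against Lpr, which tests the difference itself.

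Among the 7 members called higher in DNase, Slc26a1 was at 42.0, 48.0, 34.8 and 46.6 FPKM against 19.8, 23.4 and 21.0 in Ctr, without overlap (1.87-fold, log2 0.91 ± 0.13, adjusted p = 0.00092). Its exons overlap those of Idua, and the exons of Slc35a3, Slc5a6, Slc5a10 and Slc35a1 also overlap other annotated genes. The fructose carrier Slc2a5 was at 48.4, 52.6, 45.3 and 49.8 against 32.9, 36.5 and 28.5 (log2 0.49 ± 0.11, adjusted p = 0.00943). Slc35b2, which carries the sulfate donor PAPS into the Golgi apparatus, was at 28.0 ± 1.04 against 19.3 ± 1.19 (adjusted p = 0.0036), and Slc35a1, the CMP-sialic acid carrier, at 7.14 ± 0.129 against 5.17 ± 0.531 (adjusted p = 0.00945). Slc15a2, a peptide carrier, and Slc5a9, a sugar carrier, were higher by 0.45 ± 0.12 and 0.46 ± 0.13 on the log2 scale. The 6 skeletal muscle markers were all called lower in this comparison, from sums of 7.08 to 16.9 FPKM in Ctr to 1.30 to 4.49 in DNase, and their part in the values was not tested.

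Proteins that anchor, pair with, energize or regulate carriers were examined as well. Of 25 such genes, 0 were called between Lpr and Ctr, 0 between DNase and Lpr, and 2 lower between DNase and Ctr. Over all genes, 7.27% were called higher and 2.92% lower in Lpr than in Ctr, and 8.61% lower in DNase than in Ctr. The 2 are near that last share, and nothing is read from their number. They were Klhl3, a ubiquitin ligase adaptor that controls the WNK kinases (log2 -0.75 ± 0.08, adjusted p = 0.00021), and Sgk1, a kinase that activates sodium transport (log2 -0.74 ± 0.23, adjusted p = 0.0483). Klhl3 was at 9.86 ± 0.709 FPKM in Ctr, 4.34 ± 1.99 in Lpr and 6.27 ± 0.423 in DNase. Pdzk1, a scaffold of brush border carriers, was at 382 ± 45.5, 323 ± 40.7 and 338 ± 36.8, and Cltrn (collectrin), the partner of Slc6a19, at 747 ± 40.4, 862 ± 214 and 844 ± 57.3. Hnf4a, whose repeat was searched above, was at 163 ± 28.3, 137 ± 50.1 and 159 ± 20.7. Pdzk1, Cltrn and Hnf4a were called in none of the 3 comparisons.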

How the data were processed

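RNA from 11 mouse kidneys was measured by paired-end sequencing, with 1 library per mouse. The authors deposited raw gene counts (whole numbers, not normalized) and, in the same series, FPKM, in which they had scaled each count by library total and gene length. The submitters' processing notes name fastp, HTSeq, DESeq2, R 3.2.0 and mm10. The study's methods credit HTSeq, a read counter, with aligning the reads to reference genes. A separate aligner, the gene annotation and the strand setting are not given in the sources used here. The number of unused columns was 0.

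Groups were compared in pairs with edgeR 4.0.16 (R 4.3.3) by the quasi-likelihood test after filterByExpr and TMM, with Benjamini-Hochberg adjustment over all genes tested and a threshold of 0.05. SEs are the log2 fold change divided by the root of F. limma 3.58.1, DESeq2 1.42.0, other scalings, a replicate block and the omission of each kidney were alternatives. Log2 CPM used a prior count of 2. The procedure was also run on simulated counts. These held no length trend and no kidney set apart, so they do not bear on the part of Lpr replicate 3. Figures used python 3.11.15 and matplotlib 3.10.9.

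The members, the gene lists and the classes were chosen with earlier results of these data known. The text draws its named genes from the 12 members with the highest Ctr mean, for each direction the 10 (DNase against Lpr: 5) with the smallest p, common textbook carriers and the 2 symbols nearest the threshold on each side. Members outside this rule were named after their values were seen. Some members are not reported here by name. Counts per library allow precise values, so the spread between mice sets the errors. Gene positions came from GENCODE vM21, in which all 146 members were found. A copy was taken as near-identical from 95% identity across 70% of the query, and 44 members had exons that overlap another gene.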

Additional observations from a re-analysis of the deposited data

Results flagged for a closer look

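Among the named members, 66 groups of 4 kidneys (33 genes) were searched for a kidney that lay far from the other 3. Chance flags about 1 in 20 groups, and 4 were found. In DNase, replicate 1 was low for Slc16a14, at 0.995 FPKM against 1.44 to 1.48 in the others, and for Slc5a8, at 12.6 against 15.6 to 15.8. Replicate 3 of DNase was low for Slc16a4, at 58.6 against 69.8 to 70.6. In Lpr, replicate 3 was low for Slc5a9, at 6.09 against 12.3 to 13.4, which is the kidney whose counts fell with gene length.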

How the results depend on the processing

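The median of the members stayed below 0 in both comparisons with Ctr under every alternative run, from -0.17 to -0.05 and from -0.17 to -0.09 with 1 kidney left out. In DNase against Lpr it lay near 0 on either side, from -0.06 to 0.08 with 1 kidney left out and at -0.01 with the gene-length offset. No member was called in DNase against Lpr under any alternative run, DESeq2 included. For Lpr against Ctr, leaving out 1 kidney gave between 4 and 34 called members, beside 5.2% to 17.8% of all genes. There limma on log2(FPKM + 0.1) gave 12, beside 8.87%, a log2 limit of 1 gave 9 and one of 2 gave 0. For DNase against Ctr, the fit of all 3 groups gave 18, beside 11.4% of all genes, a log2 limit of 1 gave 3 and one of 2 gave 1. At the limit of 2 the shares over all genes were 5.78% in Lpr against Ctr and 6.01% in DNase against Ctr. No such share was taken at the limit of 1, so nothing is read from the counts of 9 and 3. With the adipose score of each kidney as a covariate, an alternative chosen after seeing the data, 16 and 27 members were called. The shares over all genes were 9.23% and 17.3%. Some values near 0 changed sign. Slc6a18 ran from -0.36 to 0.054 in Lpr against Ctr with 1 kidney left out (above 0 without Ctr replicate 2). In DNase against Ctr it ran from -0.22 to 0.20 (above 0 without Ctr replicate 2, and at 0.0032 without DNase replicate 3), and it was 0.10 with limma at both pseudocounts and 0.0014 with the replicate block. Slc27a2 ran from -0.32 to 0.0029 (above 0 without Ctr replicate 2) and Slc6a19 from -0.22 to 0.033 (above 0 without DNase replicate 3), both in DNase against Ctr. The cause was not tested.

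Replicate numbers are shared between groups, but correlations of the deviations of same-numbered kidneys ran from -0.28 to 0.16 and the labels name no pairing, so the kidneys share only a number. With the number as a replicate block, 11 members were called in Lpr against Ctr, 20 in DNase against Ctr and 0 in DNase against Lpr. The shares over all genes were 7.86%, 11.7% and 0%.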

Other observations

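Some solute carriers that were below the Ctr minimum were at 5 FPKM or more in the MRL/lpr kidneys. Slc11a1, an iron and manganese carrier of phagocyte vesicles, was at 0.626 FPKM on average in Ctr, 6.20 in Lpr and 5.85 in DNase. Slc15a3, a peptide and histidine carrier of endosomes in immune cells, was at 1.22, 9.34 and 6.28. In both, the lowest MRL/lpr kidney (3.82 and 4.66) lay above the highest Ctr kidney (0.688 and 1.29). These genes were picked as below the minimum in Ctr and not in MRL/lpr, so the direction follows from that choice. Nothing is read from it. Slc35b3, Slc35d2 and Slco2b1 crossed the minimum with smaller differences. Slc35d2 did so without overlap, at most 3.71 in Ctr and at least 4.12 in MRL/lpr.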
